A study of Emberiza melanocephala with 4 samples.

Results

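THRB encodes thyroid hormone receptor beta. It was taken as the gene carrying the reference name THRB in any of 4 assembled transcript files of black-headed bunting (Emberiza melanocephala) RNA. This made it 1 gene of the 2239 with a reference-matched transcript. Besides THRB, 1508 of these had a gene symbol, and the rest only a reference identifier. The bunting is a migratory songbird with seasonal breeding. RNA labelled as testis, from birds caught in the wild, was sequenced in 4 libraries, with 1 library per testicular state. The labels call these states sensitive and refractory, with early and late stimulated between them. Age, day length, sampling date and the number of birds in each library are not given in the labels used here. With 1 library a state there is no replicate error, so every difference below describes these libraries and carries no p-value. In bulk RNA of this kind, fewer cells of a type and less RNA per cell cannot be told apart.

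Thyroid hormone receptors are nuclear receptors that sit on DNA, mostly as partners of retinoid X receptors. Without hormone they recruit corepressors, and with triiodothyronine they recruit coactivators. The beta gene makes proteins with different N-terminal ends from alternative promoters. One of these is known from cone photoreceptors, pituitary and hypothalamus of mice, while the alpha receptor is the form usually described in the testis of rats. In photoperiodic birds such as quail, long days are known to raise active thyroid hormone in the mediobasal hypothalamus, upstream of gonadal growth.

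The tissue label was set against marker genes first. Of 9 Sertoli cell markers 2 carried a name in any file, of 7 Leydig cell markers 0 did, and of 12 germ cell markers 3 did. Per library, the named Sertoli cell markers summed to between 2.89 and 6.50 FPKM and the named germ cell markers to between 4.55 and 12.9 FPKM. FPKM relates the coverage of a gene to its length and to the size of the library, so it can be compared between genes of different length. Of 16 neuron markers 10 carried a name, and they summed to 20.4 FPKM in the sensitive library and to 1596, 1600 and 1401 FPKM in the early stimulated, late stimulated and refractory ones. Of 19 cone photoreceptor markers 8 carried a name, and they summed to 6.46, 694, 520 and 798 FPKM in the same order. A marker without a name may still be present, because the larger part of the assembled transcripts has no reference match. Each library is called by its label below.

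The files place THRB (ENSFALG00000009204) on the plus strand of scaffold JH603174.1 of the collared flycatcher assembly FicAlb_1.4, from 4599906 to 4644502. The reference transcript has 7 exons with 1168 bases in all, spread over 44.6 kb. Its introns run from 954 to 30309 bases, the longest being the first. Bunting reads were thus placed on a flycatcher gene model, and levels depend on how well that model suits the bunting. The scaffold itself was represented in every library, with 167, 238, 290 and 255 listed transcripts from sensitive to refractory.

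Transcripts carrying the name THRB were listed in 2 of the 4 libraries. In late stimulated the named transcript had all 7 exons and all 6 annotated splice junctions, at a coverage of 13.2 per base, 30.8 FPKM and 33.7 TPM. In refractory it had the same 7 exons and 6 junctions, at a coverage of 4.70, 14.8 FPKM and 15.4 TPM. Transcripts with the name carry the annotated structure, so these exons and junctions were not observed independently of the annotation. Exon 1, for example, was listed over all its 65 bases on 39 aligned bases in late stimulated and 22 in refractory. In early stimulated no transcript bore the name, but an unnamed transcript on the plus strand, from 4599903 to 4642787, had 6 exons and 5 junctions. All 5 junctions were those of THRB and none differed. This model began 3 bases before the annotated start and stopped 16 bases short of the end of exon 6, at a coverage of 6.57 and 32.7 FPKM. In sensitive no listed transcript overlapped the gene on either strand. No library listed an antisense transcript, an alternative first exon or an intronic transcript within the THRB span.

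Because the name was missing in early stimulated although the exons were covered, the level of THRB was taken from its 7 annotated exons, as their mean coverage by any listed transcript of the plus strand or of no strand, in FPKM units. THRB was at 0 in sensitive, at 25.5 FPKM in early stimulated, at 30.8 FPKM in late stimulated and at 14.8 FPKM in refractory. Late stimulated was highest, early stimulated next and refractory lowest of the covered libraries, at 0.480 times late stimulated, and no spread is available to say whether neighbours in this order differ. From early stimulated to refractory, these levels rest on 5990, 15390 and 5490 aligned bases. Late stimulated was also the deepest library, with 428.4 Mb of aligned bases, while sensitive had 120.5 Mb, early stimulated 200.8 Mb and refractory 318.1 Mb.

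**Figure D1:**
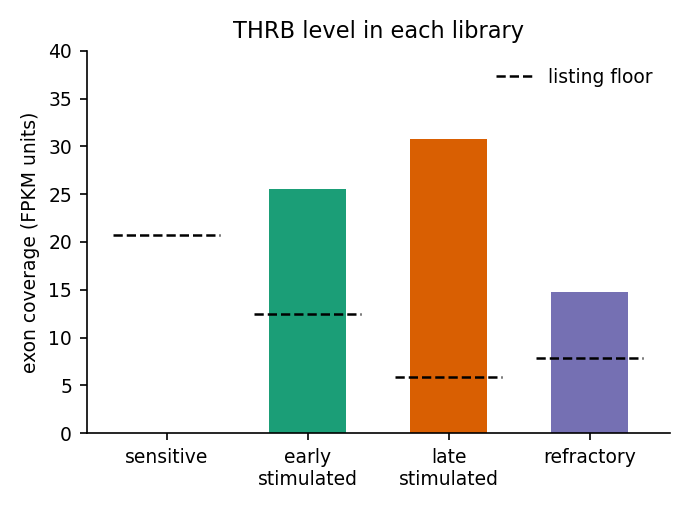
Bars give the THRB exon coverage in FPKM units in each of the 4 libraries, and dashed lines the lowest level at which unmatched transcripts appear in that file. THRB stands at 0, 25.5, 30.8 and 14.8 FPKM, and its refractory level lies under the dashed line of the sensitive library at 20.8 FPKM.

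How THRB compares with the other genes of a library can be read from its rank. It was the 705th highest of 1761 covered genes in early stimulated, the 583rd of 1852 in late stimulated and the 922nd of 1864 in refractory. The median covered gene stood at 16.6, 13.2 and 14.5 FPKM in these libraries. THRB therefore lay above the median gene in the stimulated libraries and close to it in refractory.

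The absence in sensitive is limited by depth. The files hold unmatched transcripts only at a coverage of 2.5 or more. This listing floor comes to 20.8 FPKM in sensitive and to 12.5, 5.84 and 7.86 FPKM in the libraries that follow. Named transcripts can appear below it, so it is a guide and no strict limit. The early stimulated level was 1.23 times and the late stimulated level 1.48 times the floor of the sensitive library, and the refractory level was 0.712 times that floor. The early stimulated level averages in exon 7, which had no coverage there, and the transcript listed in that library stood higher, at 32.7 FPKM. The level in sensitive may thus lie anywhere under about 20.8 FPKM, and no direction between sensitive and refractory is measurable.

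A gene was called higher or lower where log2(FPKM + 1) differed by 1 or more, which is 2-fold on values plus 1. Genes were counted where either library reached 1 FPKM, so a gene uncovered in sensitive, as THRB was, was always called higher. Against sensitive, THRB was higher by 4.73 in early stimulated, where 34.5% of 1782 genes were called higher. It was higher by 4.99 in late stimulated, where 34% of 1770 genes were called higher, and by 3.98 in refractory, where 36.5% of 1806 were. With sensitive set to its floor the 3 differences were 0.29, 0.55 and -0.46, so none passed 1 and the last changed sign. Over all genes, only those uncovered in a library were placed at its floor, and covered ones kept their level. In this way 20.1%, 16.4% and 20.3% were still called higher. Being uncovered in sensitive was common at this level. Of 336 other genes covered in the 3 remaining libraries at a mean within 1.5 times that of THRB, 74 genes, or 22.0%, had no coverage in sensitive.

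Among the 3 libraries that covered THRB, late stimulated differed from early stimulated by 0.26 on the log2(FPKM + 1) scale, which is not past the threshold. In this comparison 10.3% of 1682 genes were called higher and 11.2% lower. Refractory differed from early stimulated by -0.75, again short of the threshold, where 9.37% of 1719 genes were called lower. Refractory differed from late stimulated by -1.01, just past it, where 10.6% of 1714 genes were called lower. The median gene in that comparison differed by 0.16, in the other direction. These comparisons share libraries and are not independent of each other.

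**Figure D2:**
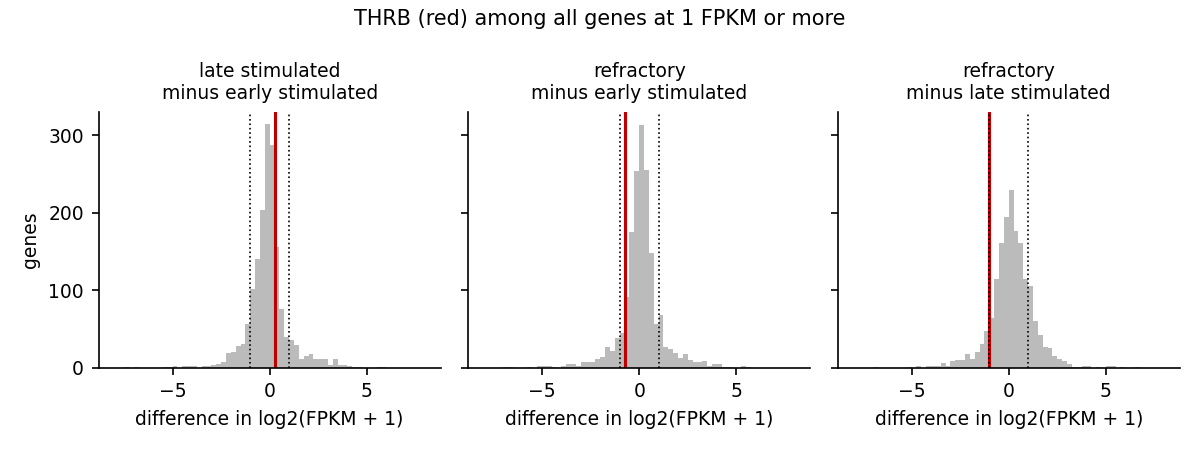
Grey bars count genes by their difference in log2(FPKM + 1) between pairs of libraries, the red line is THRB and dotted lines mark -1 and 1. THRB lies at 0.26 and -0.75, inside the dotted lines, and at -1.01 for refractory minus late stimulated, on the lower dotted line.

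The exons differed widely in coverage within each library. In early stimulated, exons 1 to 7 were at 12.9, 13.7, 28.9, 63.1, 32.7, 21.3 and 0 FPKM. In late stimulated they were at 1.401, 11.5, 57.1, 48.1, 44.6, 22.5 and 16.4 FPKM. In refractory they were at 1.06, 9.77, 4.40, 32.0, 7.46, 19.3 and 11.8 FPKM. Exon 1 was the lowest covered exon in each of these libraries, and exon 4 was the highest in early stimulated and refractory and exon 3 in late stimulated. The coefficient of variation over the exons was 0.818, 0.732 and 0.853 in early stimulated, late stimulated and refractory. Other genes with at least 5 exons at 10 to 50 FPKM had medians of 0.807, 0.745 and 0.868, so the unevenness of THRB was close to that of the middle gene.

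**Figure D3:**
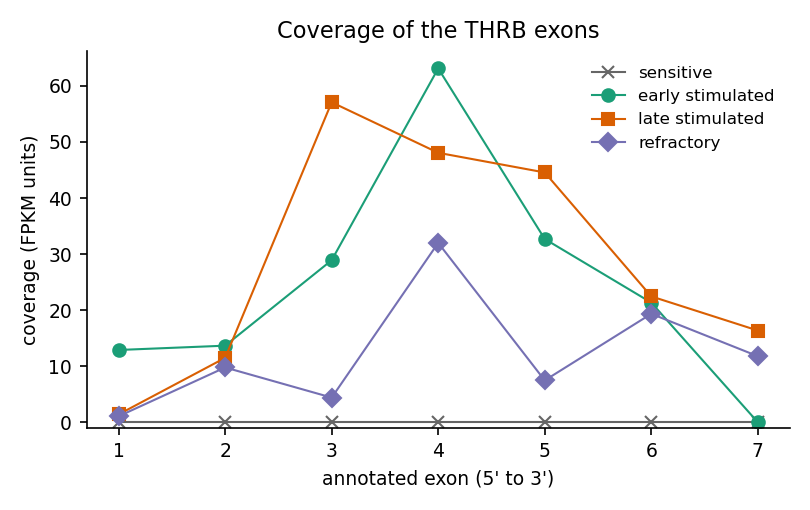
Points give the coverage of each of the 7 annotated THRB exons in FPKM units, joined by library. The refractory line lies lowest of the 3 covered libraries at exons 1 to 6 and drops at exons 3 and 5, to 4.40 and 7.46 FPKM, where late stimulated stands at 57.1 and 44.6 FPKM.

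The lower level in refractory was not shared evenly by the exons. Against late stimulated, all 7 exons had lower coverage in refractory, with a median ratio of 0.720. Exon 3 (148 bases, 4634138 to 4634285) had a ratio of 0.0770 and exon 5 (147 bases, 4638235 to 4638381) one of 0.167, while the other 5 exons had ratios between 0.666 and 0.862. In refractory, exon 3 held 207 aligned bases and exon 5 held 349, against 3619 and 2806 in late stimulated. With exon 3 left out, the difference between these libraries was -0.69, and with exon 5 left out it was -0.82, so the call rests on those exons. Against early stimulated, all 6 exons covered in both libraries were lower in refractory, with ratios from 0.0825 in exon 1 to 0.906 in exon 6. Late against early stimulated, the exons were uneven too. Of the 6 covered in both, 3 were lower in late stimulated, with ratios from 0.109 in exon 1 to 1.97 in exon 3. Their median was 0.947, so the higher level in late stimulated was not shared by all exons. How much such ratios vary in other genes was not tested.

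Exon 7 (242 bases, 4644261 to 4644502), the last annotated one, was covered in late stimulated and refractory and not in early stimulated. On exons 1 to 6 alone, a choice made after seeing this, refractory differed from early stimulated by -1.004, past the threshold. Late stimulated against early stimulated stayed within it on those exons, at 0.10. The order of the 3 levels was the same on exons 1 to 6. Exon 7 stood at 16.4 FPKM in late stimulated and at 11.8 FPKM in refractory. The listing floor of early stimulated was 12.5 FPKM, but it applies to the mean of a whole transcript and not to a single exon. It therefore cannot tell whether exon 7 was absent there, and the missing coverage does not by itself show absence.

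Past the annotated end, further transcripts were listed in the same 3 libraries. Each had a single exon, no strand and no reference match. Early stimulated listed 5 of them between 4644519 and 4649615, late stimulated 4 between 4644542 and 4649646, and refractory 5 between 4644524 and 4649615. In sensitive none was listed between THRB and the next named gene. The first segment began 17 bases past the annotated end in early stimulated, 40 bases past it in late stimulated and 22 bases past it in refractory.

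This first segment stood at 31.8 FPKM in early stimulated, while late stimulated had 27.4 and refractory 16.2 FPKM, close to the THRB exon level of each library. The second, which began 3490, 3447 and 3490 bases past the end, was also low, at 21.4, 15.9 and 16.4 FPKM from early stimulated to refractory. The segments from 4648261 on, 3759 bases or more past the end, were higher. In late stimulated the segment from 4648261 to 4649240 reached 163 FPKM, 5.29 times the THRB level. The segment with the same last base reached 155 FPKM in early stimulated, from 4648806, and 162 FPKM in refractory, from 4648801. Their levels were thus 6.08 and 10.9 times that of the THRB exons. Over all segments beyond 3 kb, early stimulated had a level of 102 FPKM, late stimulated one of 137 FPKM and refractory one of 98.9 FPKM.

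Beyond 3 kb, the segments stood at 4.90, 6.61 and 4.76 times the sensitive floor in early stimulated, late stimulated and refractory, further above it than the exons did. With sensitive at its floor the differences in log2(FPKM + 1) were 2.24, 2.67 and 2.20. Between late stimulated and refractory these segments differed by -0.47, a ratio of 0.721. The annotated exons had a level ratio of 0.480 in that comparison and a median exon ratio of 0.720. Between early stimulated and refractory the segments differed by -0.04, a ratio of 0.972. The exons had a level ratio of 0.578 there, and a median ratio of 0.368 over those covered in both libraries. Altogether the segments held 30884, 96111 and 46457 aligned bases from early stimulated to refractory, or 5.16, 6.25 and 8.46 times those on the THRB exons.

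Whether the segments belong to THRB transcripts was not tested, since no junction joins them to it and they carry no strand. The next listed feature was the NR1D2 transcript, whose nearest end lay 39.95 kb past THRB, and nothing was listed in between. Before THRB the last listed transcript ended 458 kb away in every library. Listed segments within 6 kb past a gene's end were found for 26.3% of 649 genes at 10 to 50 FPKM in early stimulated, for 31.5% of 625 genes in late stimulated and for 25.0% of 616 genes in refractory. A segment at least 2 times the gene's own level was found for 13.3%, 15.7% and 11.9% of them. THRB belonged to this smaller share in each of the 3 libraries.

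Of the nuclear receptor family, 3 genes carried a name. NR2F2, known as COUP-TFII, was at 308 FPKM in sensitive and at 46.2, 52.4 and 51.0 FPKM in the libraries from early stimulated to refractory. NR1D2, the heme-binding clock repressor REV-ERB beta, was at 21.6, 63.1, 89.4 and 74.3 FPKM in the same order. THRB was the lowest of the 3 in each library, and like NR1D2 it was highest in late stimulated. NR1D2 was covered over 519 of its 4897 exon bases in sensitive and over all of them in the other libraries. Refractory against late stimulated, NR1D2 differed by -0.26, within the threshold that THRB just passed.

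NR1D2 is also the named gene nearest to THRB, on the opposite strand, so that their 3′ ends face each other. The next named genes on that side were UBE2E2, a ubiquitin-conjugating enzyme, at 221 kb, and RAB5A, a small GTPase of early endosomes, at 1529 kb. UBE2E2 was at 106, 54.6, 55.2 and 80.1 FPKM and RAB5A at 241, 171, 198 and 153 FPKM from sensitive to refractory. Before THRB, LRRC3B lay 946 kb away, at 13.9, 14.5, 10.5 and 28.9 FPKM. CMC1, a mitochondrial assembly factor, lay 1566 kb away, at 33.6, 0, 46.1 and 44.1 FPKM. AZI2, an adaptor of the kinase TBK1, lay 1601 kb away, at 40.7, 24.9, 27.0 and 15.4 FPKM. All of these neighbours had coverage in sensitive, where THRB had none.

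Of 66 genes of thyroid hormone transport, activation, signalling and response, 2 carried a name. The list holds THRA, the retinoid X receptors, the corepressors and coactivators, the deiodinases and the hormone transporters, and for none of these can a level be given here. TRHR, the receptor of thyrotropin-releasing hormone, was at 0, 0.43, 0.60 and 0 FPKM from sensitive to refractory, far under every floor. PDC, the phosducin of photoreceptors, was at 0, 200, 79.0 and 237 FPKM. Only PDC reached 1 FPKM, and it is also counted among the rod and general photoreceptor markers below. PDC was called higher in early stimulated, late stimulated and refractory against sensitive, as were 34.5%, 34% and 36.5% of all genes. Being uncovered in sensitive, it could not have been called otherwise. It was lower in late against early stimulated, as were 11.2% of all genes, and higher in refractory against late stimulated. In that last comparison, in which THRB was lower, PDC differed by 1.57 in the other direction and 18.6% of genes were called higher.

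In mice THRB is known from cones, so the cone and other photoreceptor markers were set beside it. All 8 named cone markers were called higher than in sensitive in early stimulated, as were all 8 in refractory and the 7 measured in late stimulated, with medians of 6.49, 6.45 and 5.43. Of all genes, 34.5%, 36.5% and 34% were, in that order. Of the 8, 7 had no coverage in sensitive, so the rule fixed their calls wherever they were measured. They carried a name only through the other libraries. Uncovered genes were then set to the floor, while covered ones, such as GRK7 at 6.46 FPKM in sensitive, kept their level. On this footing, 20.1%, 20.3% and 16.4% of all genes were called higher in early stimulated, refractory and late stimulated. Of the cone markers, 6 of 8, 6 of 8 and 4 of 7 still were, in that order. KCNV2, a potassium channel subunit at 30.5, 21.5 and 21.2 FPKM from early stimulated to refractory, was never among them. SALL3, a transcription factor at 0, 6.19, 0 and 7.48 FPKM, was then called lower in early stimulated and refractory, since those levels lie under the floor of sensitive. Late stimulated against early stimulated, 0 of 8 cone markers were called higher and 2 were called lower, their median being -0.61, while THRB differed by 0.26 and 10.3% of all genes were higher and 11.2% lower. Refractory against late stimulated, 4 of 8 were higher and 0 lower, with a median of 0.77, while THRB differed by -1.01 and 18.6% of all genes were higher and 10.6% lower. Of the rod and general photoreceptor markers, 0 of 7 were higher and 5 lower in late against early stimulated, with a median of -1.11, and 3 of 6 were higher and 1 lower in refractory against late stimulated, with a median of 0.50. With uncovered genes at the floor, 3 of 7, 3 of 6 and 3 of 5 of them were called higher than in sensitive in early stimulated, late stimulated and refractory. The shares of all genes were 20.1%, 16.4% and 20.3% in that order. GNAT2, the cone transducin, was at 0, 101, 59.8 and 150 FPKM, with its lowest covered level in late stimulated, where THRB had its highest. All other named cone markers except GUCA1C and KCNV2 were also lower in late stimulated than in early stimulated and refractory, some by little. PDE6H was at 189 FPKM in early and 184 FPKM in late stimulated, and GRK7 at 40.8 and 39.2 FPKM. GUCA1C, at 0, 136, 149 and 188 FPKM, had its lowest covered level in early stimulated, and KCNV2 in refractory.

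The 10 neuron markers were compared in the same way. Of all genes, 34.5%, 34% and 36.5% were called higher than in sensitive, from early stimulated to refractory. With uncovered genes at the floor, 20.1%, 16.4% and 20.3% were. All 10 neuron markers were called higher in each of the 3 libraries than in sensitive, and the rule fixed this for the 7 with no coverage there. These 7 carried a name only through the 3 libraries compared, so being higher there was largely built in. With the 7 at the floor and the covered markers at their own levels, 9 of the 10 were called higher. The exception was GAP43, a protein of growing axons, at 0, 21.6, 9.06 and 23.5 FPKM. Refractory against late stimulated, 18.6% of all genes were called higher and 10.6% lower. Of the 10 neuron markers, 2 were higher and 2 lower, with a median of -0.25. The higher ones were GAP43 and ENO2, the neuronal enolase, which was at 1.84, 140, 75.4 and 269 FPKM. The lower ones were SCG3, a secretogranin of secretory granules, at 4.21, 272, 294 and 92.9 FPKM, and UCHL1, a ubiquitin hydrolase abundant in neurons, at 14.4, 206, 365 and 171 FPKM. The part of cell composition in the THRB levels was not tested.

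The genes whose levels were most like those of THRB were ranked by the root mean square difference in log2(FPKM + 1) over the 4 libraries, among 1508 genes with a symbol. It measures nearness of level, so a gene with the same order of libraries at another level can rank lower. This is a description over 4 points from single libraries. The nearest was NWD2 at 0.17, with levels of 0, 24.3, 28.9 and 18.8 FPKM. GNAZ, a G protein alpha subunit, followed at 0.18, with levels of 0, 29.5, 35.2 and 17.4 FPKM. FAXC at 0.22 stood at 0, 23.2, 41.2 and 14.3 FPKM. RBP3, the retinoid-binding protein of the space around photoreceptors, came next at 0.23, with levels of 0, 26.7, 25.4 and 19.4 FPKM.

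The other 6 genes of the nearest 10 lay between 0.25 and 0.35 from THRB. They were ARHGAP18, CYTH3, an exchange factor for ARF GTPases, the water channel AQP4, CCSER2, the neutral amino acid transporter SLC6A15, and HLF, a clock output transcription factor. All 10 had no coverage in sensitive, and 8 of the 10 had the order late stimulated, early stimulated, refractory. Both counts follow largely from the ranking, which used these same values, so they are no separate result. Within 0.5 of THRB lay 28 genes, while the median gene was 2.99 away. The order late stimulated over early stimulated over refractory was held by 256 of the 1539 genes covered in those libraries, or 16.6%. No coverage in sensitive together with this order was found for 63 of them, or 4.09%.

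**Figure D4:**
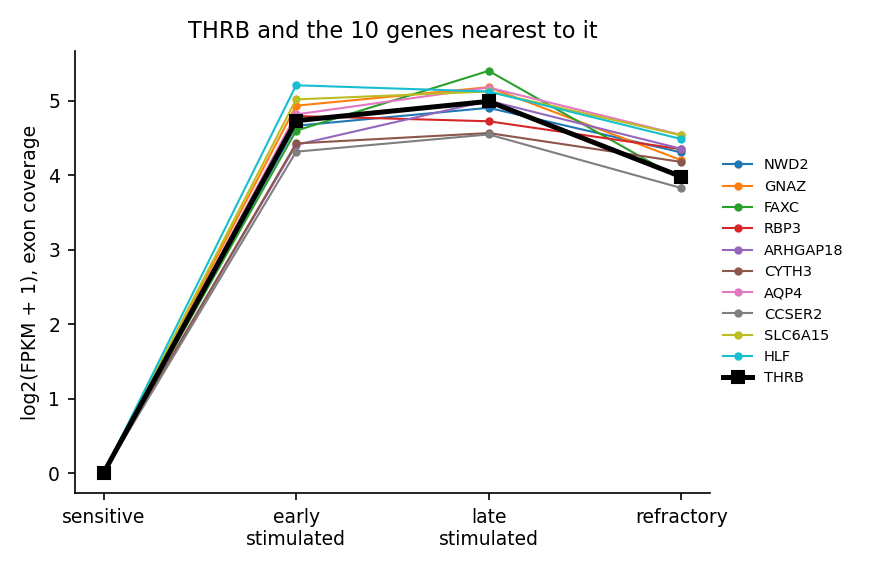
Lines give log2(FPKM + 1) of exon coverage in the 4 libraries for THRB (thick, black) and for the 10 genes nearest to it. All 11 start at 0 in sensitive, and 9 of them, THRB included, are highest in late stimulated and lowest of the remaining libraries in refractory.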

How the data were processed

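Per the labels' protocols, frozen tissue was ground, Tri reagent served to extract total RNA, and sequencing was by Illumina's standard method. The submitters' processing notes name Trimmomatic. The aligner was not given in those sources. Per the file headers, StringTie 1.3.3b built the transcripts of each library separately, with Ensembl 89 annotation of FicAlb_1.4 as its guide. The deposited values are the authors' FPKM and TPM of each transcript, normalized within a library only, and the coverage per base of each transcript and exon, which is not normalized. The header of the sensitive library uses another abbreviation than its title.

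Computed here with Python 3.11.15 and numpy 2.4.6: aligned bases from coverage over FPKM, and each gene's exon coverage in FPKM units, over the exons of its reference-matched transcripts in any file. Differences use a pseudocount of 1, which understates changes of low genes, where either library reaches 1 FPKM. The code for gene levels was checked by scaling the late stimulated coverage of sampled genes by known folds, which it recovered. That check covers the arithmetic only, on genes that share no listed transcript with another gene. The floors and the naming of transcripts were not part of it. The files used here give coverage and no read counts, so no interval was given.

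The gene, the marker lists and the naming rule (THRB, list members, 3 named neighbours on either side, the 10 nearest genes) were chosen with earlier results of these data known. Not every named list member is described. GNAT2, GUCA1C, KCNV2, SALL3, GAP43, ENO2, SCG3 and UCHL1 were picked after their values were seen. So were the downstream segments, the exon 1 to 6 value and the marker counts at the floor.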

Additional observations from a re-analysis of the deposited data

How the results depend on the processing

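On exons 1 to 6 THRB kept its level within 1.5 times, at 32.2, 34.5 and 15.6 FPKM from early stimulated to refractory. The strand settings and the other exon choices could not change the levels. Every overlapping transcript was on the plus strand, and the named transcripts had the same exons. Under the gene's name THRB was at 0 FPKM and 0 TPM in early stimulated, because the transcript there bore no name. The difference of early stimulated from sensitive was then 0, that of late from early stimulated 4.99 and that of refractory from early stimulated 3.98, the opposite sign. With sensitive at its floor the early, late and refractory differences were 0.29, 0.55 and -0.46. Refractory against early stimulated was -1.004 on exons 1 to 6, that is with exon 7 left out, a choice added after seeing the data. Refractory against late stimulated was -0.85 with a pseudocount of 5, -0.69 without exon 3 and -0.82 without exon 5, and -1.20 under median-of-ratios scaling. The number of exons covered was the same at 50% overlap, which the annotated structure of the named transcripts fixed in late stimulated and refractory.

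Floors also turned the sign of differences from sensitive in early stimulated for ARHGAP18 (-0.038), CCSER2 (-0.13) and CYTH3 (-0.019), and in refractory for ARHGAP18 (-0.090), CCSER2 (-0.62), CYTH3 (-0.27), FAXC (-0.50), GNAZ (-0.24), NWD2 (-0.14) and RBP3 (-0.096). TRHR, far under every floor, turned to -3.93 and -3.77 in early and late stimulated against sensitive, and to 2.64 and 2.47 in refractory against early and late stimulated. AZI2 turned to 4.81 in late stimulated against sensitive under its name. Counts over all genes moved by more than 1.5 times in these cases. With uncovered genes at the floor, higher genes went from 614 to 359, 602 to 291 and 660 to 366 for early stimulated, late stimulated and refractory against sensitive, from 174 to 80 for late against early stimulated and from 221 to 133 for refractory against early stimulated. With a pseudocount of 5, lower genes went from 444 to 293 and 501 to 315 for early and late stimulated against sensitive. Higher and lower genes then were 71 and 71 (from 174 and 188) for late against early stimulated, 74 and 64 (from 221 and 161) for refractory against early stimulated and 154 and 70 (from 318 and 181) for refractory against late stimulated. A filter of 5 FPKM gave 93 and 118, 117 and 92, and 209 and 113 in those comparisons. Under the genes' names they were 386 and 308, 366 and 261, and 393 lower in the last. The segments within 1 kb of the THRB end stood at 31.8, 27.4 and 16.2 FPKM, against 88.3, 119 and 83.4 over all of them. No paired analysis was possible because each state has 1 library.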

Other observations

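The likeness to THRB depends on the sensitive library, in which uncovered genes all stand at 0. Over early stimulated, late stimulated and refractory alone, 2 of the 10 nearest genes were shared with the list over 4 libraries, NWD2 and GNAZ. The other 8 had coverage in sensitive, from 6.65 FPKM in TMEM229B to 50.5 FPKM in NAB1. The nearest gene on those libraries was AZI2, with a root mean square difference of 0.11. It lies on the same scaffold as THRB, 1601 kb before it, and stood at 40.7 FPKM in sensitive, where THRB had no coverage. RBM48, at a distance of 0.15, stood at 44.4, 23.8, 28.1 and 17.2 FPKM from sensitive to refractory.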
